A study of Mus musculus with 12 samples.

Results

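The 9 genes described here belong to the Nodal, BMP and TGF-beta signalling pathways. They are Nodal, a ligand, its co-receptor gene Tdgf1 (Cripto), the Nodal antagonists Lefty1 and Lefty2, the TGF-beta receptor gene Tgfbr2, the inhibitory Smad gene Smad7, and Id1, Id2 and Id3, which are target genes of BMP signalling. They were chosen by symbol from the 20529 genes of the deposited table, with earlier results of these data known. Member counts and medians set beside those of all genes are therefore descriptions and not tests. All 9 were found and all 9 passed the filter on low counts, which kept 20486 genes.

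The study used mouse embryonic stem cells of strain 129S6/SvEvTac that carried a reporter named GFP_5xT71BS and a stable FLAG-Cas9::T2A::Blasticidin transgene, both stated in the culture protocol of all 12 libraries. Cells grew on gelatin in serum with LIF, in triplicate wells, and total RNA was sequenced as stranded TruSeq libraries. The 4 groups of 3 libraries were Tnrc6a Trim71-/- (Tnrc6a overexpressed, Trim71 knocked out), Tnrc6a Ctrl (Tnrc6a overexpressed, control genotype), Cas9 Trim71-/- (tagged as overexpressing Cas9 and not Tnrc6a, Trim71 knocked out) and Cas9 Ctrl (Cas9, control genotype). Tnrc6a is a GW182 protein that joins Argonaute and microRNA to the machinery of mRNA decay. Trim71 is an RNA-binding protein of stem cells and early embryos. The labels do not say how many lines stand behind a genotype, nor how the Tnrc6a cells were derived from the Cas9 cells, so line and genotype, and line and overexpression, cannot be told apart. Replicates are wells, so p-values measure the spread between wells, which may be technical. For 9 of the 12 libraries the description of the input RNA lists other cells (HA-AVI-Tnrc6a, in some with Ago2-/- or Upf1-/-), so the groups rest on the titles and on the overexpression tag.

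Nodal binds activin receptors together with Tdgf1, and the receptors activate Smad2 and Smad3, which with Smad4 and Foxh1 switch on target genes, among them Nodal itself and the Lefty genes. Lefty proteins block Nodal, so that pathway and antagonist form a feedback loop in the early embryo. BMP receptors instead activate Smad1, Smad5 and Smad9, which raise the Id genes, and in mouse embryonic stem cells grown in serum with LIF the Id proteins are known to hold back differentiation. TGF-beta itself signals through Tgfbr2 and Tgfbr1 to Smad2 and Smad3, and Smad7 inhibits the receptors of these branches.

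Total counts ran between 20758151 and 31552915 per library. Trim71 RNA stood at 25.4, 25.0 and 26.8 RPKM in the Tnrc6a Trim71-/- libraries, against 27.3, 27.9 and 29.7 RPKM in the Tnrc6a Ctrl libraries, and at 28.3, 28.9 and 31.2 RPKM in the Cas9 Trim71-/- libraries, against 31.1, 33.3 and 34.0 RPKM in the Cas9 Ctrl libraries. RNA of the whole gene was a little lower in each Trim71-/- group, and since the labels do not give the deleted part, it does not check them. Tnrc6a RNA was 25.0-fold higher in Tnrc6a than in Cas9 libraries among Trim71-/- cells and 25.1-fold higher among control cells, as the tag says. All 8 embryonic stem cell markers were detected in every group, with summed levels of 5279.9 to 5374 CPM (counts scaled to library size) in Tnrc6a Trim71-/-, 3461 to 3516 in Tnrc6a Ctrl, 6682 to 6790.3 in Cas9 Trim71-/- and 5445 to 5481 in Cas9 Ctrl libraries. The 10 endoderm markers summed to 203 to 225, 816 to 909.9, 117 to 122 and 404 to 416 CPM in the same order of groups, and none of the 8 or the 10 was at 0 in any group. All 10 were lower in Trim71-/- than in control cells in both settings. The 6 trophoblast markers measured summed to 133 to 135 and 242 to 277 CPM with Tnrc6a, against 41.8 to 45.4 and 46.0 to 47.8 CPM with Cas9, Trim71-/- before control each time, and 7 markers of the 2-cell-like state summed to 169 to 182 and 467 to 481 CPM with Tnrc6a, against 1.52 to 2.18 and 20.2 to 22.3 CPM with Cas9. The part of these marker shifts in the results that follow was not tested, and in bulk RNA fewer cells of a type and less RNA per cell cannot be told apart. The Trim71-/- cells also differed from control cells across chromosome 8. Its 664 genes of at least 5 CPM had a median log2 fold change of 0.52 with Tnrc6a and 0.49 with Cas9. Genes of the other chromosomes had 0.0012 and -0.012. No member lies on chromosome 8, and the part of this shift in the Trim71-/- results was not tested.

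Because Tnrc6a works with microRNAs, the members' longest 3′ UTRs (GENCODE M21) were searched for matches to the seeds (bases 2 to 8) of microRNA families known in stem cells. MicroRNAs of the miR-290 cluster and of the miR-302 cluster share 1 seed, AAGUGCU, and the miR-17 family has that seed shifted by 1 base, AAAGUGC. Representative mature sequences (RefSeq, GRCm38.p6), with the seed in capitals, show the shared seed and the shift:
mmu-miR-294-3p: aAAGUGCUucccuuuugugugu
mmu-miR-302b-3p: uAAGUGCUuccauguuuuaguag
mmu-miR-17-5p: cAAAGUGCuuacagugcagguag
A match to the miR-290 and miR-302 seed occurred in 3 members, Lefty1, Lefty2 and Tgfbr2. Among 14883 genes with a 3′ UTR, whose median length was 1116 bases, 16.7% had such a match. An 8mer, in which an A follows the 7 seed bases in the target, was found in 3.31%. Lefty1 and Lefty2 each held 1 8mer, at base 238 of 425 and at base 104 of 1290 of the UTR. Tgfbr2 held 3 matches in a UTR of 6085 bases, far longer than the median, so the shares above are not matched to its length. Of these, 1 was an 8mer, and Tgfbr2 also held 1 8mer to the miR-17 seed. The windows of 30 bases around the 4 8mers (GRCm38), with the match in capitals, are these, and the other matches are not printed:
Lefty1 site, chr1:180938202-180938231, plus strand: actgtatgcgaAGCACTTAcatgtatagat
Lefty2 site, chr1:180897906-180897935, plus strand: cacccagtttaAGCACTTAcatgggtaaat
Tgfbr2 site, chr9:116087760-116087789, minus strand: tcaaaacctaaAGCACTTAttttcaatcta
Tgfbr2 site, chr9:116090062-116090091, minus strand: caataacgtttGCACTTTAttaatgcctgt
Smad7 had 1 match of 7 bases to the miR-17 seed. Nodal, Tdgf1, Id1, Id2 and Id3 had none to either family, and no member had a let-7 match, which 10.3% of the genes had. A match is a description of the letters, and binding was not measured.

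Across the 12 libraries the members spanned a wide range of levels in RPKM, a unit that takes gene length into account. Tdgf1 was the highest of the 9 in every group, at 152 ± 1.39 RPKM in Tnrc6a Trim71-/-, 111 ± 2.78 in Tnrc6a Ctrl, 291 ± 4.56 in Cas9 Trim71-/- and 274 ± 0.454 in Cas9 Ctrl libraries (SD, n = 3 each). Id1 came next in every group and Tgfbr2 was the lowest of the 9 in every group. The order between them changed. Nodal stood above Smad7 in both control groups and below it in both Trim71-/- groups, and Id3 stood above both of them in Cas9 Trim71-/- libraries and below both in the other groups. Neighbours in the order overlapped in range only among Lefty2, Lefty1 and Tgfbr2 in Tnrc6a Ctrl libraries and among Id2, Lefty2 and Lefty1 in Cas9 Ctrl libraries.

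**Figure D1:**
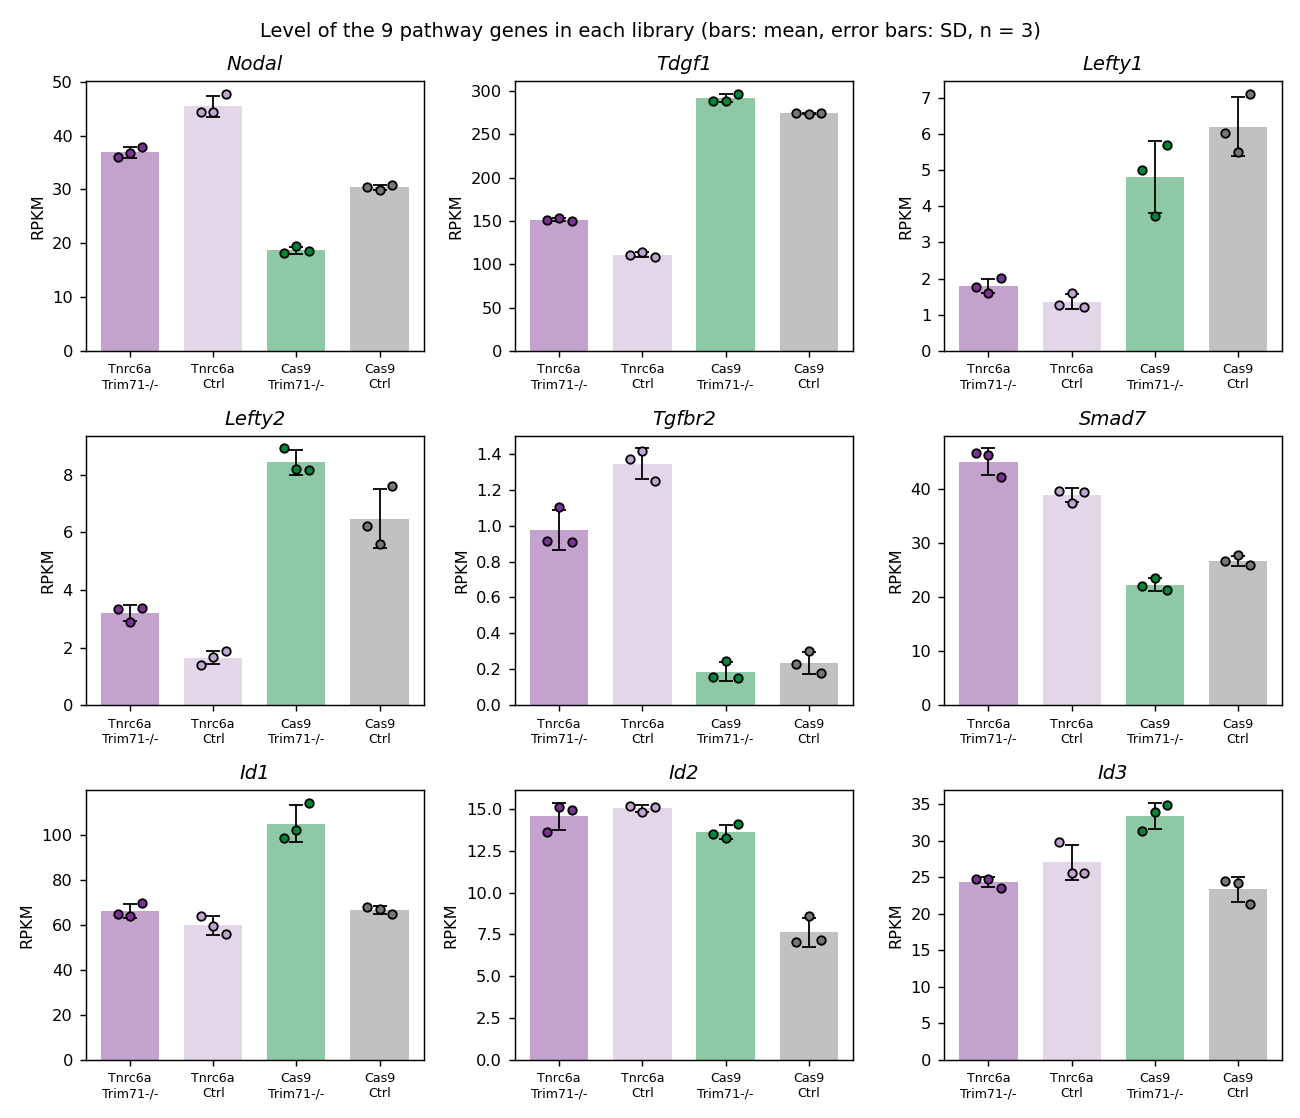
Level of each of the 9 genes in RPKM (vertical axes, linear, starting at 0) in the 4 groups, with 1 point per library, bars for the mean of 3 libraries and error bars for the SD. Lefty1, Lefty2 and Tdgf1 are lower in both Tnrc6a groups than in both Cas9 groups, Nodal, Tgfbr2 and Smad7 are higher, and Id1 and Id3 stand highest in Cas9 Trim71-/- libraries.

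Calls below are from edgeR's quasi-likelihood test with Benjamini-Hochberg adjustment over all 20486 genes, at a threshold of 0.05. With Tnrc6a against Cas9 in Trim71-/- cells, 3 members rose, 5 fell and Id2 was not called, where 62.9% of all genes tested were called (32.0% higher, 30.9% lower). In control cells 5 rose and 4 fell, where 63.5% of all genes were called (30.4% higher, 33.1% lower). With Trim71-/- against control, 4 members rose, 3 fell and 2 (Lefty1 and Id2) were not called in Tnrc6a libraries, where 39.1% of all genes were called (20% higher, 19.0% lower). In Cas9 libraries 5 rose, 3 fell and Tgfbr2 was not called, where 36.1% of all genes were called (17.1% higher, 19.1% lower). A call was thus common in these libraries, above all in the Tnrc6a comparisons, so the members are described mainly by size and direction. With Tnrc6a against Cas9, changes of at least 2-fold were found for 4 members in Trim71-/- cells (Lefty1, Lefty2, Tgfbr2 and Smad7) and for 4 in control cells (Lefty1, Lefty2, Tdgf1 and Tgfbr2), where 14.4% and 14.2% of all genes changed as much. In the same comparisons the median size of the log2 fold change over the 9 members was 0.98 in Trim71-/- cells, against 0.38 over all genes, and 0.99 in control cells, against 0.38. For Trim71-/- against control it was 0.30 with Tnrc6a, against 0.20, and 0.38 with Cas9, against 0.21. The libraries of the 2 groups did not overlap for 8 and 9 members in the Tnrc6a comparisons (65.7% and 67.4% of all genes) and for 7 and 7 in the Trim71-/- comparisons (49.4% and 43.3%). The comparisons share groups with one another, so their values are given side by side.

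**Figure D2:**
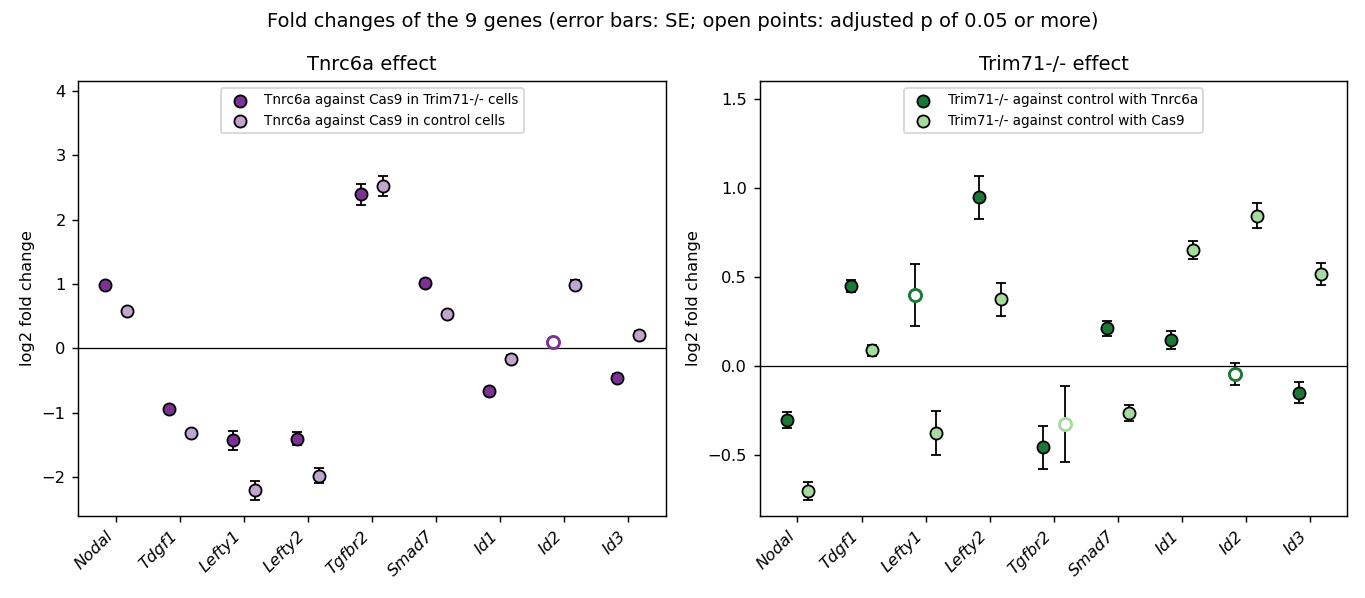
Log2 fold changes of the 9 genes (vertical axes) with error bars for the standard error, for Tnrc6a against Cas9 (left, in Trim71-/- cells and in control cells) and for Trim71-/- against control (right, with Tnrc6a and with Cas9). Filled points had an adjusted p under 0.05. Lefty1, Lefty2 and Tdgf1 lie below 0 and Nodal, Tgfbr2 and Smad7 above 0 in both Tnrc6a comparisons, while Smad7, Id3, Lefty1 and Id2 lie on opposite sides of 0 in the 2 Trim71-/- comparisons, the last 2 with 1 open point each.

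Nodal (ENSMUSG00000037171, GRCm38 chr10:61417972-61425338, plus strand), the ligand, was higher with Tnrc6a and lower without Trim71. It stood at 35.9, 36.8 and 37.9 RPKM in Tnrc6a Trim71-/- libraries, against 18.2, 19.4 and 18.5 RPKM in Cas9 Trim71-/- libraries. In control cells it stood at 44.3, 44.4 and 47.7 RPKM with Tnrc6a, against 30.5, 29.8 and 30.8 RPKM with Cas9. No 2 of the 4 groups overlapped. With Tnrc6a, Nodal rose 1.97-fold in Trim71-/- cells (log2 fold change 0.98, SE 0.049, adjusted p = 3e-21) and 1.5-fold in control cells (log2 fold change 0.58, SE 0.046, adjusted p = 1.17e-14). Trim71-/- cells had 1.23-fold less than control cells with Tnrc6a (log2 fold change -0.30, SE 0.045, adjusted p = 4.22e-07) and 1.63-fold less with Cas9 (log2 fold change -0.70, SE 0.050, adjusted p = 1.42e-15). The Tnrc6a effect was larger in Trim71-/- than in control cells by 0.40 on the log2 scale (SE 0.067, adjusted p = 6.22e-05 in the interaction test), which is equally the amount by which the loss of Nodal in Trim71-/- cells was smaller with Tnrc6a.

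Tdgf1 (ENSMUSG00000032494, GRCm38 chr9:110939603-110946158, minus strand), the co-receptor through which Nodal reaches its receptors, went the other way from its ligand. It stood at 151, 153 and 150.3 RPKM in Tnrc6a Trim71-/- libraries, against 289, 289 and 297 RPKM in Cas9 Trim71-/- libraries. The control cells had 111, 114 and 108 RPKM with Tnrc6a, against 275, 274 and 274 RPKM with Cas9, where the replicates were the closest of all 9 members. With Tnrc6a it fell 1.92-fold in Trim71-/- cells (log2 fold change -0.94, SE 0.034, adjusted p = 3.3e-26) and 2.47-fold in control cells (log2 fold change -1.31, SE 0.034, adjusted p = 2.88e-31), and the fall was smaller in Trim71-/- cells by 0.36 (SE 0.048, adjusted p = 6.4e-07). Of the 8 embryonic stem cell markers, 6 fell with Tnrc6a in Trim71-/- cells and 8 in control cells, and their part in the falls of Tdgf1 and the Lefty genes was not tested. Trim71-/- cells had 1.37-fold more Tdgf1 than control cells with Tnrc6a (log2 fold change 0.45, SE 0.034, adjusted p = 9.32e-15). With Cas9 the difference was 1.06-fold (log2 fold change 0.087, SE 0.034, adjusted p = 0.0383), and its call was lost with upper-quartile scaling (adjusted p = 0.0687), with the replicate number as a block (0.0591), and without Cas9 Trim71-/- replicate 2 (0.0565) or 3 (0.087) or any 1 of the 3 Cas9 Ctrl libraries (0.0834 to 0.089). A pseudogene, Tdgf1-ps1, holds 8.86% of the 50-base stretches of Tdgf1 transcripts, so part of the counts may be split between them, and its values are uncertain to that extent. The ratio of Tdgf1 to Nodal in RPKM was 4.11 ± 0.130 in Tnrc6a Trim71-/-, 2.44 ± 0.157 in Tnrc6a Ctrl, 15.6 ± 0.652 in Cas9 Trim71-/- and 9.03 ± 0.133 in Cas9 Ctrl libraries (SD, n = 3 each).

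Lefty1 (ENSMUSG00000038793, GRCm38 chr1:180935022-180938400, plus strand) and Lefty2 (ENSMUSG00000066652, GRCm38 chr1:180893108-180899103, plus strand), neighbours on chromosome 1, encode antagonists that bind Nodal and its co-receptor. Lefty1 stood at 1.76, 1.61 and 2.02 RPKM in Tnrc6a Trim71-/- libraries, against 5.01, 3.74 and 5.69 RPKM in Cas9 Trim71-/- libraries. In control cells it stood at 1.27, 1.59 and 1.23 RPKM with Tnrc6a, against 6.02, 5.49 and 7.11 RPKM with Cas9. All 6 Tnrc6a libraries lay below all 6 Cas9 libraries, while the 2 genotypes overlapped with Cas9. With Tnrc6a, Lefty1 fell 2.68-fold in Trim71-/- cells (log2 fold change -1.42, SE 0.15, adjusted p = 3.24e-11) and 4.59-fold in control cells (log2 fold change -2.20, SE 0.15, adjusted p = 8.81e-17). Without Trim71, Lefty1 was 1.30-fold lower with Cas9 (log2 fold change -0.38, SE 0.13, adjusted p = 0.0165), a call lost without Cas9 Trim71-/- replicate 2 (adjusted p = 0.18) or Cas9 Ctrl replicate 3 (0.152). With Tnrc6a the ratio of Trim71-/- to control was 1.32 (95% interval 1.04 to 1.67) and was not called (adjusted p = 0.065). It was called without Tnrc6a Ctrl replicate 2 (0.044) and without Cas9 Trim71-/- replicate 2 (0.0453).

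Lefty2 stood at 3.34, 2.89 and 3.38 RPKM in Tnrc6a Trim71-/- libraries, against 8.92, 8.20 and 8.17 RPKM in Cas9 Trim71-/- libraries. The control cells had 1.41, 1.68 and 1.88 RPKM with Tnrc6a, against 6.22, 5.61 and 7.61 RPKM with Cas9. No 2 of the 4 groups overlapped. The fall with Tnrc6a was 2.64-fold in Trim71-/- cells (log2 fold change -1.40, SE 0.10, adjusted p = 5.15e-16) and 3.93-fold in control cells (log2 fold change -1.97, SE 0.11, adjusted p = 2.63e-19). Unlike the Lefty1 call, the Lefty2 change without Trim71 was upward in both settings, 1.93-fold with Tnrc6a (log2 fold change 0.95, SE 0.12, adjusted p = 1.71e-08) and 1.30-fold with Cas9 (log2 fold change 0.37, SE 0.093, adjusted p = 0.00123). The Tnrc6a effect was smaller in Trim71-/- cells for both genes, by 0.78 for Lefty1 (SE 0.22, adjusted p = 0.0186) and by 0.57 for Lefty2 (SE 0.15, adjusted p = 0.0141). Both calls depended on single libraries. That of Lefty1 was lost without any 1 of 5 libraries, Tnrc6a Trim71-/- replicate 3 (0.0709), Tnrc6a Ctrl replicates 1 (0.0723) and 3 (0.0558), Cas9 Trim71-/- replicate 2 (0.0592) and Cas9 Ctrl replicate 3 (0.0698). That of Lefty2 was lost without any 1 of 3, Tnrc6a Ctrl replicates 1 (0.12) and 2 (0.0527) and Cas9 Ctrl replicate 3 (0.0836). The counts behind Lefty1 were low with Tnrc6a, 64 to 90 per library. Of the 50-base stretches of Lefty1 transcripts, 17.9% also occur in Lefty2, so reads there could be assigned to either.

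The balance of ligand to antagonists differed more than the ligand did. The ratio of Nodal to the sum of Lefty1 and Lefty2, in RPKM, was 7.04, 8.17 and 7.02 in Tnrc6a Trim71-/- libraries, against 1.31, 1.63 and 1.33 in Cas9 Trim71-/- libraries. In control cells it was 16.6, 13.6 and 15.4 with Tnrc6a, against 2.49, 2.69 and 2.09 with Cas9. No 2 groups overlapped. The means differed 5.21-fold in Trim71-/- cells and 6.26-fold in control cells (exact permutation p = 0.1, two-sided, the smallest that 3 against 3 libraries allow), and in each setting the ratio was lower in Trim71-/- than in control cells. The share of the 2 antagonists also moved. Lefty2 over Lefty1 was 1.89, 1.79 and 1.68 in Tnrc6a Trim71-/- libraries, against 1.12, 1.05 and 1.53 in Tnrc6a Ctrl libraries, and 1.78, 2.19 and 1.44 in Cas9 Trim71-/- libraries, against 1.03, 1.02 and 1.07 in Cas9 Ctrl libraries. The genotypes did not overlap in either setting (exact permutation p = 0.1 each), whereas Tnrc6a and Cas9 overlapped in both genotypes (p = 0.900 in Trim71-/- cells and 0.200 in control cells).

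**Figure D3:**
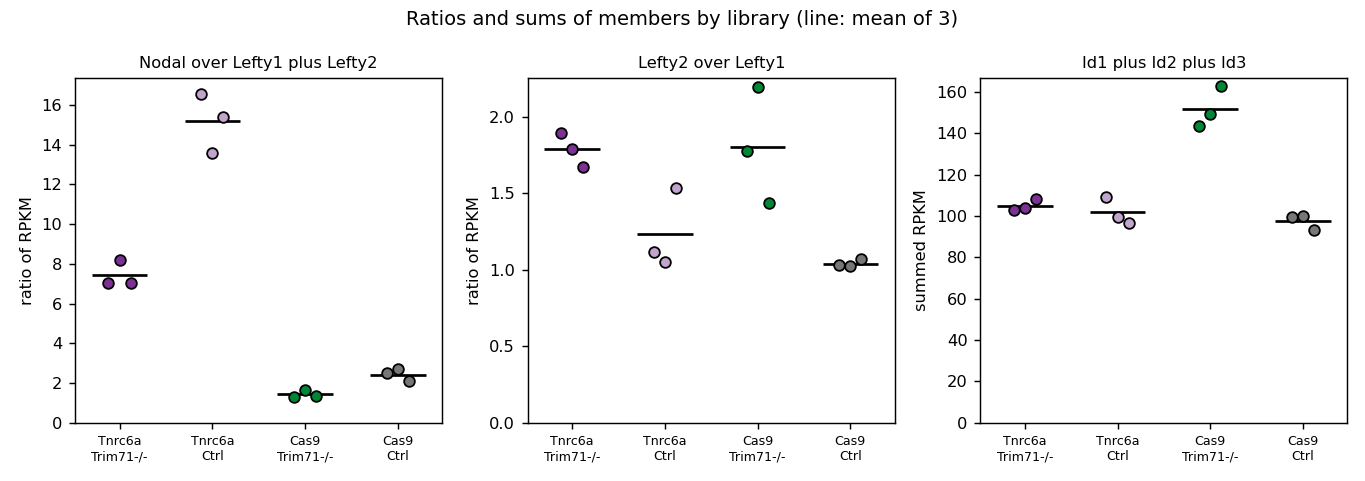
Ratio of Nodal to Lefty1 plus Lefty2 (left), ratio of Lefty2 to Lefty1 (middle) and sum of Id1, Id2 and Id3 (right) in RPKM, on linear axes from 0, with 1 point per library and a line at the mean of 3. The left ratio is above 7 in all 6 Tnrc6a libraries and below 3 in all 6 Cas9 libraries, and the Id sum stands above 140 only in the 3 Cas9 Trim71-/- libraries.

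Tgfbr2 (ENSMUSG00000032440, GRCm38 chr9:116084293-116175360, minus strand), the receptor that binds TGF-beta ligands, was the lowest member and had the largest fold change of the 9 with Tnrc6a. It stood at 0.916, 1.11 and 0.909 RPKM in Tnrc6a Trim71-/- libraries, against 0.160, 0.247 and 0.152 RPKM in Cas9 Trim71-/- libraries. In control cells it stood at 1.37, 1.41 and 1.25 RPKM with Tnrc6a, against 0.230, 0.303 and 0.179 RPKM with Cas9. All 6 Tnrc6a libraries lay above all 6 Cas9 libraries. The rise was 5.25-fold in Trim71-/- cells (log2 fold change 2.39, SE 0.17, adjusted p = 2.02e-16) and 5.76-fold in control cells (log2 fold change 2.53, SE 0.16, adjusted p = 3.04e-18). The 2 rises did not differ detectably, with a ratio of 0.911 (95% interval 0.650 to 1.28) and an adjusted p = 0.829. The 4 fibroblast markers measured summed to 27.2 to 30.4 CPM in Tnrc6a Trim71-/-, 26 to 28.6 in Tnrc6a Ctrl, 18.6 to 20 in Cas9 Trim71-/- and 14.7 to 19.2 in Cas9 Ctrl libraries, none at 0, and their part in the rise was not tested. Of the 3 members with matches to the miR-290 and miR-302 seed, Tgfbr2 rose and both Lefty genes fell. Without Trim71 it was 1.37-fold lower with Tnrc6a (log2 fold change -0.46, SE 0.12, adjusted p = 0.00223). With Cas9 the ratio was 0.799 (95% interval 0.597 to 1.07) and was not called (adjusted p = 0.251), on 27 to 49 counts per library.

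Smad7 (ENSMUSG00000025880, GRCm38 chr18:75367529-75395935, plus strand), an inhibitory Smad that TGF-beta signalling itself induces, was higher with Tnrc6a in both genotypes. It stood at 46.7, 46.3 and 42.2 RPKM in Tnrc6a Trim71-/- libraries, against 22, 23.6 and 21.3 RPKM in Cas9 Trim71-/- libraries. The control cells had 39.7, 37.5 and 39.5 RPKM with Tnrc6a, against 26.6, 27.7 and 25.9 RPKM with Cas9, and no 2 of the 4 groups overlapped. The rise was 2.02-fold in Trim71-/- cells (log2 fold change 1.01, SE 0.044, adjusted p = 3.14e-23) and 1.45-fold in control cells (log2 fold change 0.54, SE 0.044, adjusted p = 2.45e-14), larger in Trim71-/- cells by 0.47 (SE 0.062, adjusted p = 5.81e-07). The Trim71-/- effect changed sides with the setting. Smad7 was 1.16-fold higher in Trim71-/- than in control cells with Tnrc6a (log2 fold change 0.21, SE 0.043, adjusted p = 8.45e-05) and 1.20-fold lower with Cas9 (log2 fold change -0.26, SE 0.045, adjusted p = 7.77e-06). Each direction held under all alternatives tried.

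The Id genes encode helix-loop-helix proteins without a DNA-binding part, which hold back other helix-loop-helix factors. All 3 rose in Trim71-/- cells with Cas9. With Tnrc6a, Id1 rose less, Id2 was not called and Id3 fell. Id1 (ENSMUSG00000042745, GRCm38 chr2:152736251-152737410, plus strand) stood at 64.6, 63.9 and 69.9 RPKM in Tnrc6a Trim71-/- libraries, 64.0, 59.3 and 55.9 in Tnrc6a Ctrl libraries, 98.6, 102 and 114 in Cas9 Trim71-/- libraries and 68.0, 67.2 and 64.8 in Cas9 Ctrl libraries. Only the Cas9 Trim71-/- libraries stood clear of all others. Without Trim71 it was 1.57-fold higher with Cas9 (log2 fold change 0.65, SE 0.051, adjusted p = 1.14e-13). With Tnrc6a the rise was 1.11-fold (log2 fold change 0.15, SE 0.052, adjusted p = 0.0227), the 2 groups overlapped, and the call was lost with relative log expression scaling (0.0699), with DESeq2 (0.114) and without Tnrc6a Trim71-/- replicate 3 (0.159) or Tnrc6a Ctrl replicate 2 (0.133) or 3 (0.166). With Tnrc6a against Cas9, Id1 fell 1.59-fold in Trim71-/- cells (log2 fold change -0.67, SE 0.051, adjusted p = 1.67e-14). In control cells the fall was 1.12-fold (log2 fold change -0.16, SE 0.053, adjusted p = 0.00829), and its call was lost with relative log expression scaling (0.0504), with DESeq2 (0.0815) and without Tnrc6a Ctrl replicate 2 (0.0601) or 3 (0.0806).

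Id2 (ENSMUSG00000020644, GRCm38 chr12:25093799-25097140, minus strand) stood at 13.6, 15.1 and 14.9 RPKM in Tnrc6a Trim71-/- libraries, 15.2, 14.8 and 15.1 in Tnrc6a Ctrl libraries, 13.5, 13.3 and 14.1 in Cas9 Trim71-/- libraries and 7.07, 8.63 and 7.16 in Cas9 Ctrl libraries. Here the Cas9 Ctrl libraries stood apart, below all 9 others. Id2 was 1.80-fold higher in Trim71-/- than in control cells with Cas9 (log2 fold change 0.84, SE 0.070, adjusted p = 1.52e-13) and 1.99-fold higher with Tnrc6a than with Cas9 in control cells (log2 fold change 0.99, SE 0.069, adjusted p = 1.63e-16). With both changes together Id2 stood no higher than with one. In Trim71-/- cells the ratio of Tnrc6a to Cas9 was 1.07 (95% interval 0.981 to 1.17), not called (adjusted p = 0.178), and with Tnrc6a the ratio of Trim71-/- to control was 0.968 (95% interval 0.889 to 1.05), not called (adjusted p = 0.606). Id3 (ENSMUSG00000007872, GRCm38 chr4:136143497-136145755, plus strand) stood at 24.8, 24.8 and 23.5 RPKM in Tnrc6a Trim71-/- libraries, 29.8, 25.7 and 25.7 in Tnrc6a Ctrl libraries, 31.4, 34.0 and 34.9 in Cas9 Trim71-/- libraries and 24.6, 24.2 and 21.3 in Cas9 Ctrl libraries. The Cas9 Trim71-/- libraries were again the highest. Id3 was 1.43-fold higher without Trim71 with Cas9 (log2 fold change 0.52, SE 0.060, adjusted p = 2.58e-09). With Tnrc6a it was 1.11-fold lower (log2 fold change -0.15, SE 0.060, adjusted p = 0.0415), a call lost with limma-voom (0.051), without chromosome 8 genes (0.0676) and without Tnrc6a Trim71-/- replicate 1 (0.0649) or 3 (0.152) or Tnrc6a Ctrl replicate 1 (0.229). With Tnrc6a against Cas9, Id3 fell 1.37-fold in Trim71-/- cells (log2 fold change -0.45, SE 0.059, adjusted p = 1.21e-08) and rose 1.16-fold in control cells (log2 fold change 0.21, SE 0.061, adjusted p = 0.00228).

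The interaction put the 3 Id genes on the other side from the Nodal genes. The Tnrc6a effect was lower in Trim71-/- than in control cells by -0.51 for Id1 (SE 0.073, adjusted p = 5.99e-06), -0.89 for Id2 (SE 0.094, adjusted p = 4.4e-09) and -0.67 for Id3 (SE 0.085, adjusted p = 3.65e-07), and higher for Nodal, Tdgf1, Lefty1, Lefty2 and Smad7. In all, 8 of the 9 members were called in the interaction, 5 higher and 3 lower, where 6.93% of all genes were called (4.68% higher, 2.25% lower). Of those calls 67.5% were higher, a share that moved to 55.6% with relative log expression scaling and to 55.4% with DESeq2, while the 8 members were called on the same side in both. Since the members were chosen with earlier results of these data known, their count beside the share of all genes is a description only. The sum of the 3 Id genes was 105 ± 2.83 RPKM in Tnrc6a Trim71-/-, 102 ± 6.45 in Tnrc6a Ctrl, 152 ± 10.1 in Cas9 Trim71-/- and 97.6 ± 3.76 in Cas9 Ctrl libraries (SD, n = 3 each). The Cas9 genotypes did not overlap (exact permutation p = 0.100, the smallest possible) and the Tnrc6a genotypes did (p = 0.5).

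RefSeq promoter windows of 300 bases (250 before the start, 50 after, GRCm38.p6) were at hand for 5 members, Nodal, Tdgf1, Tgfbr2, Id2 and Id3, and were searched on both strands for CAGAC (part of the Smad box), GTCTAGAC (the palindromic Smad element), GGCGCC (a GC-rich element bound by BMP Smads) and the Foxh1 words AATCCACA and AATACACA. The 2 Id windows are shown because the Id genes rose together in Cas9 Trim71-/- cells, with matches in capitals:
Id2 promoter, chr12:25096043-25096342, minus strand: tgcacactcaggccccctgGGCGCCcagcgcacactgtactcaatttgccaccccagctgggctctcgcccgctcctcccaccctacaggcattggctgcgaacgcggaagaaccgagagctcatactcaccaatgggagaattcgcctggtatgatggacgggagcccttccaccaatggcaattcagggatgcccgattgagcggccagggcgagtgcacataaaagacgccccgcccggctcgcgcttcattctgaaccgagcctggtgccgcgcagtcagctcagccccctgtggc
Id3 promoter, chr4:136143572-136143871, plus strand: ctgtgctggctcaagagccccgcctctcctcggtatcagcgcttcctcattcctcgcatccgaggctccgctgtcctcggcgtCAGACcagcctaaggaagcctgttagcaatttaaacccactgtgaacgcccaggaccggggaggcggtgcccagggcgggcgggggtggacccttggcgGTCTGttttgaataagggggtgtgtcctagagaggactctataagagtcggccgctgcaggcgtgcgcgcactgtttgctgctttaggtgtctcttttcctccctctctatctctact
Id2 held 1 GGCGCC, at -231 from its start, a word found in 11.9% of 32851 promoter windows. Id3 held CAGAC at -167 and, on the other strand, at -68. Tdgf1 held 1 CAGAC at -113 and Tgfbr2 1 at -160, and 49.6% of all windows hold this word. The longer words occurred in none of the 5 windows, and Nodal had no match to any. The windows are short, and no match says only that these letters are not in them. Both Id windows lie inside the gene spans given above, so their positions count from a RefSeq start and not from an end of those spans.

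Beyond the 9 members, 69 other genes of 13 pathway lists were tested. With Tnrc6a they shifted upward. In Trim71-/- cells 41 rose and 11 fell (75.4% called, against 62.9% of all genes), with a median log2 fold change of 0.43, against 0.017 for all genes. In control cells 42 rose and 16 fell (84.1%, against 63.5%), with a median of 0.31, against -0.016. Without Trim71 more fell than rose. With Tnrc6a 14 rose and 21 fell (50.7%, against 39.1%, median -0.059), and with Cas9 7 rose and 23 fell (43.5%, against 36.1%, median -0.15). Other listed genes, among them Gdf1, Inhba, Cer1, Cfc1, Acvr1c, Bmp5, Gdf6 and Lhx1, were not analysed here. Within each role the lists below count their members among the 9 as well. The lists, too, were chosen with earlier results of these data known, so their shares are descriptions. With Tnrc6a against Cas9, genes of at least 5 CPM outside chromosome 8 had medians of -0.065 in Trim71-/- and -0.093 in control cells. Some of the largest rises began at low levels. In Cas9 Trim71-/- and Cas9 Ctrl libraries Tgfb3 stood at 0.149 and 0.162 RPKM and Dlx3 at 0.211 and 0.335 RPKM. Hand1 stood at 0.154 and 0.292, Fstl3 at 0.169 and 0.334 and Gsc at 0.421 and 0.398 RPKM. Per Cas9 Trim71-/- library, Hand1 had 7 to 8, Fstl3 7 to 15 and Gsc 10 to 18 counts. Per Cas9 Ctrl library they had 8 to 22, 18 to 21 and 5 to 17 counts in the same order.

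**Figure D4:**
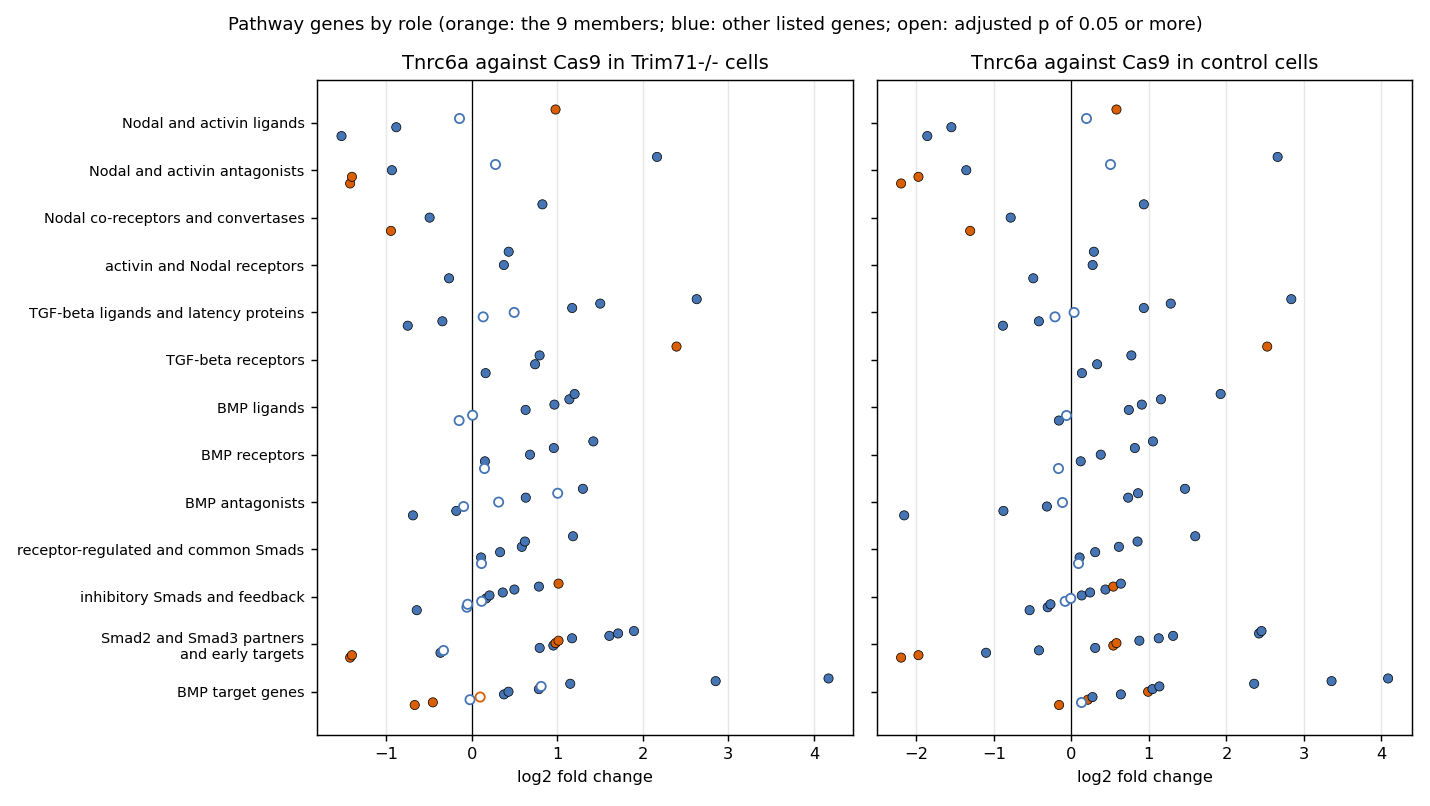
Log2 fold change with Tnrc6a against Cas9 (horizontal axes) in Trim71-/- cells (left) and in control cells (right) for the pathway genes tested, 1 point per gene, by role (vertical axis). Orange points are the 9 members and open points were not called. TGF-beta receptors and most BMP target genes lie right of 0, while Lefty1, Lefty2 and Tdgf1 lie left of it in both panels.

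Among the 4 Nodal and activin ligands tested, Nodal was the only one to rise with Tnrc6a, and Inhbb and Gdf3 fell in both genotypes. In this paragraph, paired values of Tnrc6a effects are log2 fold changes from Trim71-/- and then from control cells. Inhbb, which encodes the beta B chain of activin and inhibin, averaged 63.1 ± 0.559 RPKM in Tnrc6a Trim71-/-, 14.5 ± 0.570 in Tnrc6a Ctrl, 116 ± 2.15 in Cas9 Trim71-/- and 52.8 ± 1.06 in Cas9 Ctrl libraries (SD, n = 3 each). It was 4.34-fold higher without Trim71 with Tnrc6a (log2 fold change 2.12, SE 0.039, adjusted p = 4.42e-36) and 2.2-fold higher with Cas9 (log2 fold change 1.14, SE 0.037, adjusted p = 2.74e-27), where Nodal was lower. Its fall with Tnrc6a was 1.84-fold in Trim71-/- cells (log2 fold change -0.88, SE 0.036, adjusted p = 3.29e-24) and 3.63-fold in control cells (log2 fold change -1.86, SE 0.039, adjusted p = 6.62e-35). Gdf3, a Nodal-like ligand of stem cells, fell 2.87-fold with Tnrc6a in Trim71-/- cells and 2.93-fold in control cells (log2 fold changes -1.52, SE 0.049, and -1.55, SE 0.049) and was not called between genotypes. Of the 5 antagonists tested, 1 rose and 3 fell with Tnrc6a in Trim71-/- cells and 1 rose and 3 fell in control cells. Fst (follistatin, which traps activin) fell with the Lefty genes (-0.93, SE 0.12, and -1.36, SE 0.13), and the related Fstl3 rose (2.16, SE 0.27, and 2.66, SE 0.21). Dand5, a Nodal antagonist, rose without Trim71 with Tnrc6a (1.00, SE 0.20) and with Cas9 (1.23, SE 0.23). It lies on chromosome 8, where the median gene was 0.52 and 0.49 higher in the same comparisons. Of the convertases that cleave the Nodal precursor, Furin rose with Tnrc6a (0.83, SE 0.065, and 0.93, SE 0.065) and Pcsk6 fell (-0.49, SE 0.054, and -0.78, SE 0.054).

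All 4 TGF-beta receptor genes rose with Tnrc6a in both genotypes, and Tgfbr2 rose most. Tgfbr3 (betaglycan) rose by 0.79 (SE 0.14) in Trim71-/- and 0.77 (SE 0.12) in control cells on the log2 scale, Eng (endoglin) by 0.74 (SE 0.061) and 0.33 (SE 0.059), and Tgfbr1, the partner of Tgfbr2 in the receptor complex, by 0.16 (SE 0.052) and 0.14 (SE 0.051). The Tgfbr1 call was lost in Trim71-/- cells without Tnrc6a Trim71-/- replicate 2 (0.0681) and in control cells without Tnrc6a Ctrl replicate 3 (0.103) or Cas9 Ctrl replicate 1 (0.0583). Without Trim71, 3 of the 4 fell in each setting. Those were Tgfbr2, Tgfbr3 and Tgfbr1 with Tnrc6a, and Tgfbr3, Eng and Tgfbr1 with Cas9. Tgfbr1 averaged 8.09 ± 0.258 RPKM in Tnrc6a Trim71-/-, 9.45 ± 0.363 in Tnrc6a Ctrl, 7.21 ± 0.459 in Cas9 Trim71-/- and 8.6 ± 0.117 in Cas9 Ctrl libraries, far above Tgfbr2 in each. Among the 7 genes for TGF-beta ligands and latency proteins, 3 rose and 2 fell with Tnrc6a in Trim71-/- cells and 3 rose and 2 fell in control cells. Tgfb3 rose by 2.63 (SE 0.25) and 2.84 (SE 0.24). Tgfb1 was lower in all 4 comparisons, with log2 fold changes of -0.34 and -0.42 with Tnrc6a and of -0.28 and -0.35 without Trim71. Its call between the Tnrc6a genotypes was lost without Tnrc6a Trim71-/- replicate 3 (0.103) or Tnrc6a Ctrl replicate 3 (0.056).

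Of the 6 BMP ligand genes tested, Bmp6 and Bmp2 had the largest falls without Trim71. Bmp6 fell 3.62-fold with Tnrc6a (log2 fold change -1.85, SE 0.20, adjusted p = 2.04e-10) and 4.25-fold with Cas9 (log2 fold change -2.09, SE 0.26, adjusted p = 9.74e-09), and Bmp2 fell 3.13-fold (log2 fold change -1.65, SE 0.26, adjusted p = 1.81e-06) and 2.75-fold (log2 fold change -1.46, SE 0.35, adjusted p = 0.000773). Bmp4, named here after its values were seen, was the only one to rise without Trim71, 1.66-fold with Tnrc6a and 1.47-fold with Cas9. Its mean level was 19.9 ± 0.501 RPKM in Tnrc6a Trim71-/-, against 12 ± 0.599 in Tnrc6a Ctrl libraries, and 19.7 ± 0.957 in Cas9 Trim71-/-, against 13.4 ± 0.0128 in Cas9 Ctrl libraries. Bmp4 thus stood high in both Trim71-/- groups, while Id1 and Id3 stood high in the Cas9 one and Id2 in every group but Cas9 Ctrl. A link between Bmp4 and the Id genes was not tested. Smad1, which carries the BMP signal, rose 1.53-fold without Trim71 with Tnrc6a (log2 fold change 0.61, SE 0.058, adjusted p = 7.18e-12) and 1.52-fold with Cas9 (log2 fold change 0.60, SE 0.065, adjusted p = 2.39e-10). It also lies on chromosome 8. Smad6, the inhibitory Smad of the BMP branch, fell without Trim71 (-0.62, SE 0.12, with Tnrc6a and -0.77, SE 0.14, with Cas9) and rose with Tnrc6a (0.79, SE 0.14, in Trim71-/- and 0.64, SE 0.12, in control cells). Bmper, a secreted BMP regulator, had the largest fall of the pathway genes named, -3.79 (SE 0.23) with Tnrc6a and -3.62 (SE 0.33) with Cas9. The 10 endoderm markers fell in the same 2 comparisons, as given above, and their part in the falls of Bmp2, Bmp6 and Bmper was not tested. These falls ended at low counts. Bmper had 2 to 8, Bmp2 5 to 12 and Bmp6 12 to 14 counts per Cas9 Trim71-/- library. In Tnrc6a Trim71-/- libraries they had 7 to 18, 16 to 23 and 25 to 40 counts in the same order.

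Among 11 BMP target genes, the 3 Id members included, 6 rose and 2 fell with Tnrc6a in Trim71-/- cells and 9 rose and 1 fell in control cells. Of all genes, 62.9% and 63.5% were called in these comparisons. Without Trim71, 2 of the 11 rose and 5 fell with Tnrc6a, where 39.1% of all genes were called. With Cas9, 4 of the 11 rose and 3 fell, where 36.1% of all genes were called. The 4 that rose were the 3 members and Id4, named here after its values were seen (0.41, SE 0.14). The Id4 call was lost without Cas9 Trim71-/- replicate 1 (0.0965) or 2 (0.0619) or Cas9 Ctrl replicate 2 (0.0845). The largest rises with Tnrc6a were those of Dlx3 (4.17, SE 0.18, in Trim71-/- and 3.36, SE 0.17, in control cells) and Hand1 (2.85, SE 0.29, and 4.09, SE 0.20), a homeobox and a helix-loop-helix regulator, both active in trophoblast. Hand1 is also 1 of the 6 trophoblast markers whose sum rose with Tnrc6a. Msx2 had an interaction on the side of the Id genes (-0.71, SE 0.17, adjusted p = 0.00701). No BMP target gene had one on the other side.

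With Tnrc6a, most of the receptor and Smad genes in this paragraph were called higher. Of all genes, 62.9% were called in Trim71-/- cells (32.0% higher) and 63.5% in control cells (30.4% higher). Of the 5 BMP receptor genes, 4 rose in each genotype and the other was not called. Acvrl1, which binds BMP9 and BMP10 in endothelium, rose by 1.42 (SE 0.17) in Trim71-/- and 1.05 (SE 0.17) in control cells, and Acvr1 (ALK2) by 0.68 (SE 0.12) and 0.82 (SE 0.12). Bmpr1b was higher without Trim71 with Tnrc6a (0.70, SE 0.24, adjusted p = 0.0176), a call lost without Tnrc6a Trim71-/- replicate 1 (0.0973) or 2 (0.0575) or Tnrc6a Ctrl replicate 1 (0.0915) or 2 (0.123). Of the 3 activin and Nodal receptor genes tested, Acvr1b and Acvr2a rose with Tnrc6a and Acvr2b fell, in both genotypes. The fall of Acvr2b in Trim71-/- cells was not called without Cas9 Trim71-/- replicate 1 (0.0522). Of 6 receptor-regulated and common Smads, 5 rose with Tnrc6a in each genotype and the other was not called. Smad3, which carries the Nodal and TGF-beta signal, rose 1.5-fold in Trim71-/- cells (log2 fold change 0.59, SE 0.076, adjusted p = 8.08e-09) and 1.81-fold in control cells (log2 fold change 0.85, SE 0.082, adjusted p = 2.83e-12), and also without Trim71, 1.22-fold with Tnrc6a and 1.47-fold with Cas9. Of the 7 BMP antagonist genes tested, 2 rose and 2 fell with Tnrc6a in Trim71-/- cells, and 3 rose and 3 fell in control cells.

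Of 12 partners and early targets of Smad2 and Smad3, which include Nodal, Lefty1, Lefty2 and Smad7, 8 rose and 3 fell with Tnrc6a in Trim71-/- cells and 8 rose and 4 fell in control cells. Of all genes, 62.9% and 63.5% were called in these comparisons. Gsc rose by 1.71 (SE 0.30) on the log2 scale in Trim71-/- cells and 2.45 (SE 0.30) in control cells, while both Lefty genes fell. Gsc and Eomes are also among the 7 primitive streak and mesoderm markers measured, whose sums were 21.6 to 22.8 CPM in Tnrc6a Trim71-/-, 19.0 to 20 in Tnrc6a Ctrl, 13.4 to 14.9 in Cas9 Trim71-/- and 16.2 to 19.3 in Cas9 Ctrl libraries. Eomes, which Nodal signalling induces, was 1.59-fold higher without Trim71 with Tnrc6a (log2 fold change 0.67, SE 0.10, adjusted p = 5.13e-07). Of 10 inhibitory Smads and feedback genes, 6 rose and 1 fell with Tnrc6a in Trim71-/- cells and 5 rose and 3 fell in control cells. Smad7 rose most of these in Trim71-/- cells. Skil, a repressor of Smad2 and Smad3, was lower without Trim71 with Tnrc6a (-0.28, SE 0.046) and with Cas9 (-0.53, SE 0.046).

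The genes whose pattern over the 12 libraries was most like that of a member were sought among 10855 genes of at least 5 CPM on average, by the root mean square of the difference between centred log2 levels. Closest to Nodal were Sesn2 (0.0675), Dedd2 (0.0802), Fbxl20 (0.0896) and Otud1 (0.0953). Closest to Id1 were Wdr4 (0.0893), Chaserr (0.0997), Poc1b (0.100) and Lgals3 (0.106). Closest to Tgfbr2, at a greater distance, were Ccn1 (0.233), Epm2a (0.263), Cxcl16 (0.276) and Ddr2 (0.280). None of these is in the pathway lists.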

How the data were processed

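RNA of 12 libraries in 4 groups of 3 was analysed. The read counts per gene and the RPKM values (reads per gene length and library size) are the authors' deposited values, in a table with the authors' deposited gene lengths and 20529 genes. Reads were demultiplexed with bcl2fastq 2.20 and aligned with STAR 2.7.3a to GRCm38 (mm10), per the submitters' processing notes. No source used here names the counting tool, the annotation or the strand setting, so reads of overlapping genes on opposite strands may not have been told apart. Total deposited counts per library were between 20758151 and 31552915, and levels are the deposited RPKM.

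Counts were fitted with edgeR 4.0.16 (quasi-likelihood, TMM scaling, filterByExpr by group, 1 mean per group over all 12 libraries) in R 4.3.3, with Benjamini-Hochberg adjustment over 20486 genes and a threshold of 0.05. SE is the log2 fold change over the root of F, and 95% intervals are 1.96 SE. The script was tested on simulated data. Alternatives were relative log expression and upper-quartile scaling, no filter, at least 1 CPM in 6 libraries, DESeq2 1.42.0, limma-voom (limma 3.58.1), the replicate number as a block, 2 groups only, no chromosome 8 genes and each library left out. Ratios were tested with exact permutation tests. Named in the text are the 9 members and, per pathway list and comparison, up to 2 other called genes with the largest change and at least 1 CPM. Members and lists were chosen with earlier results of these data known. Seed matches were sought in the longest 3′ UTR of GENCODE M21, and shared stretches of 50 bases between transcripts of different genes. No pair of libraries of a group was alike beyond sampling noise, and same-numbered libraries of different groups did not deviate together (18 correlations between -0.038 and 0.028).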

Additional observations from a re-analysis of the deposited data

Results flagged for a closer look

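Each value here is the Tnrc6a effect in Trim71-/- cells minus that in control cells, as a log2 difference, and each was flagged because edgeR's interaction test found the effects to differ between the genotypes. Among the members, the difference was 0.40 for Nodal, 0.36 for Tdgf1, 0.78 for Lefty1, 0.57 for Lefty2 and 0.47 for Smad7. It was -0.51 for Id1, -0.89 for Id2 and -0.67 for Id3. Of the other pathway genes, the activin chain gene Inhbb had 0.98, the convertase gene Pcsk6 0.29, the decoy receptor gene Bambi 0.44, the repressor gene Skil 0.25, the receptor genes Bmpr1b 1.13 and Eng 0.41, and Eomes 0.49. The ligand gene Bmp8b had -1.30 and the BMP target gene Msx2 -0.71. Several of these calls were lost under alternatives. That of Bmpr1b (adjusted p = 0.0499) was lost with relative log expression scaling (0.0575), DESeq2 (0.0845), limma-voom (0.0544), the replicate block (0.0567), no chromosome 8 genes (0.0509) and without any 1 library other than replicate 3 of either Tnrc6a group (0.0599 to 0.161). That of Eomes was lost with relative log expression scaling (0.0594), DESeq2 (0.0715) and without any 1 library other than Cas9 Trim71-/- replicate 2 or Cas9 Ctrl replicate 1 (0.0521 to 0.162). That of Bambi was lost without Tnrc6a Trim71-/- replicate 2, Tnrc6a Ctrl replicate 1 or 2, Cas9 Trim71-/- replicate 1 or 2 or Cas9 Ctrl replicate 2 (0.0555 to 0.108). That of Skil was lost without Tnrc6a Trim71-/- replicate 2 (0.124) or Tnrc6a Ctrl replicate 1 (0.108) or 2 (0.0918), that of Pcsk6 without Tnrc6a Ctrl replicate 1 (0.0846) or 2 (0.128), and that of Bmp8b without Cas9 Trim71-/- replicate 1 (0.0557). The losses of Lefty1 and Lefty2 are given in their paragraph. The contrast is the same whether read as the Tnrc6a effect by genotype or as the Trim71-/- effect by overexpression. Both readings use all 4 groups, so a group that stands apart moves every value.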

How the results depend on the processing

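Counts of called genes stayed within 1.5 times of those reported under all alternatives tried. Leaving out 1 library gave 12098 to 12908 genes for Tnrc6a against Cas9 in Trim71-/- cells (8 members in each fit), 12094 to 13212 in control cells (8 to 9 members), 6955 to 8380 for Trim71-/- against control with Tnrc6a (5 to 8), 6417 to 7431 with Cas9 (6 to 8) and 1059 to 1403 for the interaction (6 to 8). The other alternatives gave 11544 to 12900, 11624 to 13007, 7265 to 8600, 6719 to 7406 and 1283 to 1425. The replicate numbers did not pair the libraries (none of 18 correlations above 0.1). With the replicate number as a block, 1335 genes and 8 members were called in the interaction, and Tdgf1 lost its call in Trim71-/- against control with Cas9 (adjusted p = 0.0591). The interaction of Tgfbr2, not called, was -0.32 without Cas9 Ctrl replicate 2 and turned to 0.11 without Cas9 Trim71-/- replicate 2 and to 0.038 without Cas9 Ctrl replicate 3; the cause was not tested. The share of interaction calls that were higher was 67.5%, against 51.1% to 52.9% without Tnrc6a Trim71-/- replicate 2 or Tnrc6a Ctrl replicate 1 or 2. For single genes, 3565 values under alternatives kept their side of the threshold, 140 lost and 2 gained a call. Among the 9 members, the lowest depth was behind Tgfbr2 (27 to 49 counts per Cas9 library) and Lefty1 with Tnrc6a (64 to 90 counts). Some other pathway genes had less, such as Bmper with 2 to 8 and Hand1 with 7 to 8 counts per Cas9 Trim71-/- library.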
